A study of Mus musculus with 3 samples.

Results

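The potassium channel genes of the mouse midbrain were taken by symbol: every gene whose name is Kcn, a subfamily letter or letters, and a number. The rule found 92 of the 49585 listed genes, in 20 subfamilies. They comprised the pore-forming subunits of voltage-gated (Kcna, Kcnb, Kcnc, Kcnd, Kcnh, Kcnq), electrically silent (Kcnf, Kcng, Kcns, Kcnv), calcium- or sodium-activated (Kcnma, Kcnn, Kcnt, Kcnu), inward rectifier (Kcnj) and K2P leak channels (Kcnk), and the auxiliary subunits Kcnab, Kcne, Kcnip and Kcnmb. The libraries were made from total RNA of midbrain taken on postnatal day 3 from C57BL/6 mice, with 1 wild-type (WT) library and 2 libraries of the genotype FGR, whose meaning is not given in the labels. No treatment is labelled for either group, and the labels do not say how many animals a library holds. The question the design implies is how the level of each gene differed between FGR and WT midbrain.

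Potassium channels let potassium ions leave the cell and so set the resting potential, end the action potential and limit repetitive firing. Voltage-gated members open on depolarization, inward rectifiers and K2P channels act near rest, and calcium-activated members couple firing to calcium entry. Auxiliary subunits change the gating, surface level or placement of the pore. Many of these genes are switched on as neurons mature after birth, and some mark glia, pericytes or choroid plexus rather than neurons.

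In FGR, 4 of the 82 tested potassium channel genes fell and 0 rose, or 4.88% called against 4.25% of all tested genes. Of the 4, Kcna6 alone was also called by DESeq2 and under a stricter filter on low counts. Those that fell were Kcna6, a voltage-gated channel of the Kv1 family, Kcnq5, a subunit of the M-current channels that restrain repetitive firing, and Kcnj2 and Kcnj12, both strong inward rectifiers of the Kir2 branch. The falls were modest, between 1.29-fold and 1.66-fold. Kcnd2 and Kcnd3, like Kcna6 among the most abundant members per length, had fitted changes within 1.01-fold. In both genes WT lay between the FGR libraries. The 250 bases upstream of the RefSeq start of each gene that fell are shown because these are the members whose levels differ. They come from the RefSeq promoter table for GRCm38.p6, which held 67 of the 92 members, and are written 5' to 3' on the strand of the gene with CG dinucleotides in capitals. The windows are chr6:126740675-126740924 (minus strand) for Kcna6, chr1:21961943-21962192 (minus) for Kcnq5, chr11:111065914-111066163 (plus) for Kcnj2 and chr11:61065554-61065803 (plus) for Kcnj12. The Kcnj12 start lies inside the gene, 43240 bases downstream of its first annotated base in GENCODE M21, and each other start coincides with that of its GENCODE gene. RefSeq lists 2 starts for Kcnq5, of which this one is shown.
Kcna6: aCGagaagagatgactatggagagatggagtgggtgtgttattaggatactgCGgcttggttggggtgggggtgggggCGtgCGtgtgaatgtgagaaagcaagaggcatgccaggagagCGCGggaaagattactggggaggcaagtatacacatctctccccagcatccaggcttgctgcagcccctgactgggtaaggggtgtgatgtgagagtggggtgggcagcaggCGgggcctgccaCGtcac
Kcnq5: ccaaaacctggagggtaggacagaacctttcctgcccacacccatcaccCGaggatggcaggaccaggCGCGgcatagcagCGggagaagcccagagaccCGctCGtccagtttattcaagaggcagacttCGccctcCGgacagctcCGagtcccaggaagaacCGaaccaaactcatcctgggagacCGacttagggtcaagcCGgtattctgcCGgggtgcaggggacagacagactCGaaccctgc
Kcnj2: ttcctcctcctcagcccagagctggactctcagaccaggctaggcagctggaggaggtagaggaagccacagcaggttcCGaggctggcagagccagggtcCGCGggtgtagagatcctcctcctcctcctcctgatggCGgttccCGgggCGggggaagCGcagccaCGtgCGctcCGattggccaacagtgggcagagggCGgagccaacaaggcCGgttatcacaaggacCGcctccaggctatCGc
Kcnj12: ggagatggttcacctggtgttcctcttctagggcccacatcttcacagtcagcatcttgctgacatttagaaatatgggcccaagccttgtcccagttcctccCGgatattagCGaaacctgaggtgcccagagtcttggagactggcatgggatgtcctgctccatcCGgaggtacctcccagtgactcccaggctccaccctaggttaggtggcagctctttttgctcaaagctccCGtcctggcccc

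The windows of Kcnj2 and Kcnq5 held 14 CG dinucleotides each, that of Kcna6 held 8 and that of Kcnj12 held 4, against a median of 6 over 32851 windows of all genes and 7 over the 92 windows of the 67 potassium channel genes, some of which have several. The GC box GGGCGG, searched on both strands, occurred 2 times upstream of Kcnj2 and not upstream of the others. It is present in 32.7% of all windows and in 44.6% of those of potassium channel genes. The E-box CACGTG occurred 1 time, also upstream of Kcnj2 (6.0% of all windows), and TATAAA, searched on both strands, in none of the 4 (12.4% of all windows). A match is a string of letters and says nothing of binding.

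Total counts were 52874311 for WT, 58444481 for FGR replicate 1 and 46240262 for FGR replicate 2. Potassium channel genes took 0.237% of the WT counts, against 0.225% and 0.216% in FGR. The gene Fgr had 6, 3 and 4 counts, too few to check the label by. The FGR libraries differed from each other as libraries of different sex do: Xist had 29129 counts in WT against 34285 and 78 in the FGR replicates, and Ddx3y had 0 against 2 and 2944. Kcnd1 is the 1 potassium channel gene on the X chromosome. Regional markers also moved between the groups. Of 13 markers of hypothalamus and ventral forebrain 11 fell, with a summed level of 60.2 CPM (a depth-normalised count, with TMM scaling) for WT but 7.40 and 7.70 CPM for FGR, and Nkx2-4, Dlx6, Fezf1 and Six6 were at 0 counts in both FGR libraries. Of 9 midbrain and tectum markers 7 rose and 0 fell (289.2 CPM in WT against 462.6 and 402.1 CPM in FGR). Hindbrain markers were higher as well (5 of 9 tested rose, 22.1 CPM in WT against 71.0 and 57.1 CPM in FGR), and of 7 thalamus markers 4 rose and 2 fell. Among other cells, 4 of 5 erythroid markers rose, while 3 of 6 oligodendrocyte precursor markers and 3 of 7 endothelial markers fell. Of 8 pan-neuronal markers 0 passed the test in either direction (4829 CPM in WT against 4748 and 4590 CPM in FGR). Cerebellum markers differed within the FGR pair, at 152.0 CPM summed in WT against 133.25 and 235.7 CPM in FGR replicates 1 and 2. The WT and FGR samples thus differed in regional marker RNA, and in that of the non-neuronal cells named here and below. The part of these differences in the results was not tested. In bulk tissue, fewer cells of a type and less RNA per cell cannot be told apart.

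Levels of different genes were compared per length, as RPKM (CPM divided by the gene length in kilobases). The highest was Kcnd2, which forms the A-type channel of dendrites, at 31.7 RPKM in WT and 32.2 and 31.2 RPKM in FGR. Next came Kcna6 at 22.3 RPKM in WT and 17.8 and 16.8 RPKM in FGR. The WT library was thus above both FGR libraries, which lay close together. Kcnd3, another A-type channel, averaged 15.5 RPKM over the libraries, Kcnk9, an acid-sensitive leak channel, 14.2, Kcnip1, a calcium-binding partner of Kcnd channels, 12.2, Kcnk10 11.8 and Kcna3 10.7 RPKM. A mean RPKM of at least 10 was reached by 8 members, while 31 of the 92 were under 1.

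**Figure D1:**
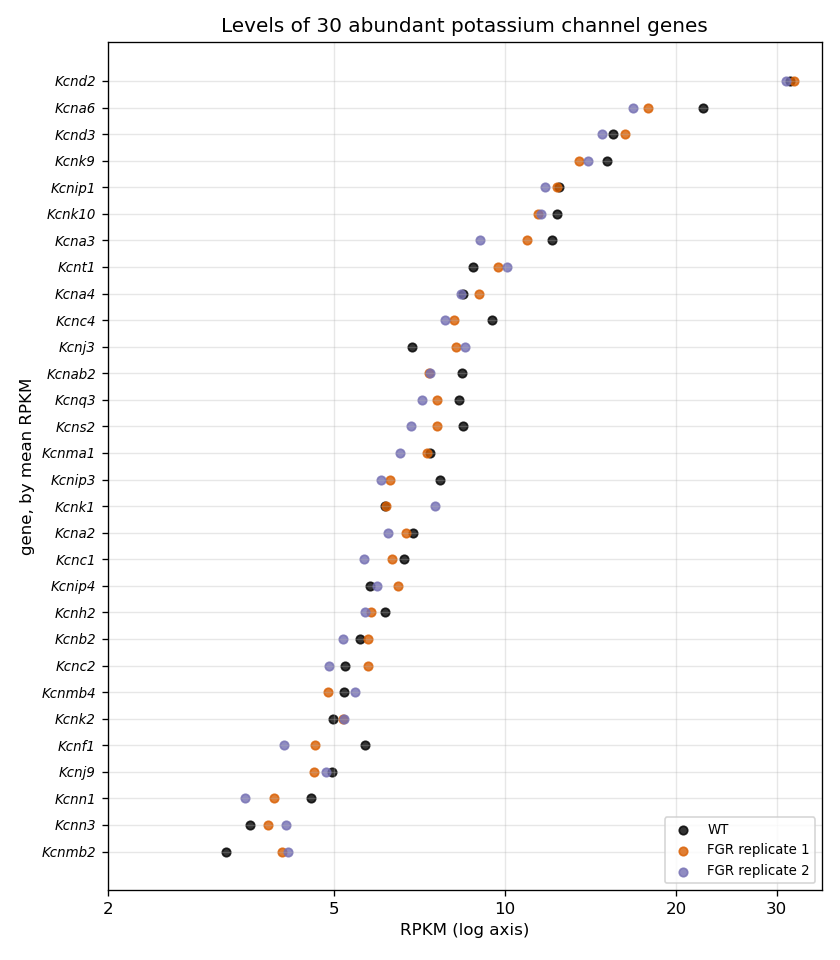
RPKM (x axis, log scale) of 30 abundant potassium channel genes, ordered by mean RPKM (y axis), 1 point per library. Kcnd2 leads at 31.2 to 32.2 RPKM in all libraries, and the WT point of Kcna6 lies apart from its FGR points, at 22.3 against 17.8 and 16.8 RPKM.

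Voltage-gated pores made up 50.5% of the summed RPKM of potassium channel genes in WT and 51.2% and 49.5% in FGR. K2P leak channels made up 12.4%, 12.2% and 13.2%, auxiliary subunits 13.6%, 13.6% and 13.9%, and inward rectifiers 9.84%, 9.16% and 9.96% in the same order. The share of calcium- and sodium-activated pores was 7.87% in WT and 8.54% and 8.52% in FGR. That of the silent pores was 5.76% in WT and 5.30% and 4.91% in FGR, the 1 class lower in both FGR libraries by more than the FGR libraries differed from each other. With 1 WT library no spread of these shares within WT is known.

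Of the 92 members, 82 had enough counts to be tested, and the 10 untested had 2 to 17 counts in all libraries together. By edgeR's quasi-likelihood F test, adjusted over all 25561 tested genes, 4 of 82 passed an adjusted p of 0.05, or 4.88%, against 4.25% of all tested genes. All 4 were lower, against 2.59% of all genes called lower and 1.66% called higher. The share of potassium channel genes called was thus near the background. At an unadjusted p of 0.05, 17 members were lower and 4 higher (20.7% and 4.88%, against 9.92% and 8.41% of all tested genes). With 0 members called higher by edgeR, DESeq2 and limma-voom also called 0 higher. With an offset for GC content and length 2 were called higher and 4 lower. Among all genes 424 were called higher and 663 lower, so 39.0% of calls were higher, or 24.4% with scaling by library totals alone.

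Most members sat slightly below WT. Both FGR libraries lay below WT in 48 of the 82 tested members (58.5%, against 38.2% of all tested genes) and above WT in 15 (18.3%, against 38.5%). The median log2 fold change of FGR over WT was -0.12, beside 0.01 over all tested genes, and 59 of 82 members had a negative value. For members averaging 1 CPM or more the median was -0.10 (n = 72, and 0.01 over 18667 genes at that level). Of these 72 members, 4 were called, all lower (5.56%, against 5.62% of genes at that level called in either direction and 3.40% called lower), and 43 had both FGR libraries below WT (59.7%, against 37.6%). Members share the same 3 libraries and are not independent, so these counts describe the set and carry no test.

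**Figure D2:**
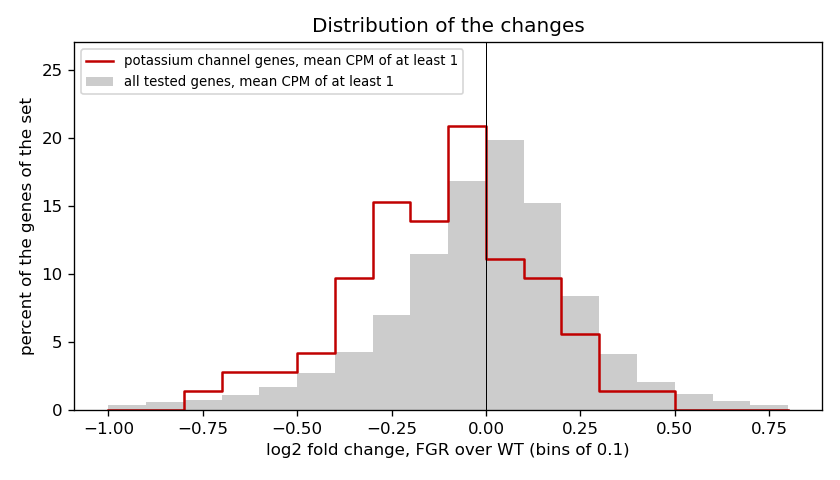
Percent of genes (y axis) in bins of log2 fold change, FGR over WT (x axis), for tested genes averaging 1 CPM or more; grey bars show all such genes and the red line the 72 potassium channel genes among them, and genes outside the plotted range are not drawn. The red line lies to the left of the grey bars, with medians of -0.10 and 0.01.

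The shift was larger in GC-rich members. Members with a GC content above 51.8%, the median of the tested members, had a median log2 fold change of -0.21 (n = 41), and the other 41 had a median of -0.06. Among all genes averaging 1 CPM or more, the medians above and at or below the same GC content were -0.04 and 0.04, so a GC trend was present across all genes as well. With an offset for GC content and length in the fit, the medians of the GC-rich and the other members were -0.13 and -0.08, and that of all members was -0.092. Kcna6, Kcnj2, Kcnj12 and Kcnq5 were called lower in that fit as well.

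**Figure D3:**
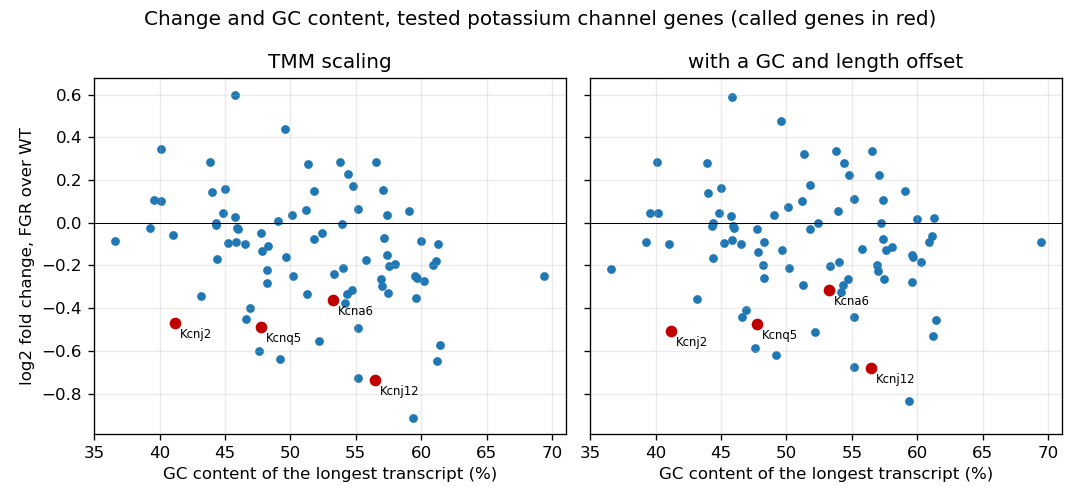
Log2 fold change of FGR over WT (y axis) against the GC content of the longest annotated transcript in percent (x axis) for the 82 tested potassium channel genes, with TMM scaling on the left and with a GC and length offset on the right. The 4 called genes, in red, lie below 0 in both panels, while the GC-rich genes as a group move up, from a median of -0.21 to -0.13.

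Of the Kv1 family, the Kcna genes, which encode low-threshold channels of axons and terminals, Kcna6 fell. It was at 132.4 CPM in WT against 106.0 and 99.9 CPM in FGR replicates 1 and 2. Both FGR libraries were below WT and close to each other. The log2 fold change was -0.36 ± 0.07 (SE; mean of FGR 102.9 ± 4.32 CPM, SD, n = 2; edgeR adjusted p = 0.00890). Kcna6 was called in all 10 alternatives that allow a test, with adjusted p from 8.68e-06 to 0.0442. The other 5 tested Kcna genes, named after their values were seen, did not pass. Kcna2, the major axonal Kv1 channel of the adult brain, was at 82.0 CPM in WT against 79.9 and 74.2 CPM in FGR. Kcna3 was at 23.0, 20.8 and 17.2 CPM in the same order, and Kcna5 at 5.93, 4.79 and 4.59 CPM, both below WT in each FGR library but not called (adjusted p = 0.285 and 0.296). Kcna1 and Kcna4 had WT between the FGR libraries, at 5.22 CPM against 4.83 and 5.91 CPM for Kcna1 and at 40.8 CPM against 43.5 and 40.5 CPM for Kcna4. Kcna7 and Kcna10 had at most 9 counts in a library and were not tested. The auxiliary Kv1 beta subunit gene Kcnab2 was at 46.9 CPM in WT against 41.0 and 41.1 CPM in FGR (log2 fold change -0.19 ± 0.07, adjusted p = 0.178). Kcnab1 and Kcnab3 were above WT in both FGR libraries, at 1.10-fold and 1.05-fold, and not called.

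Of the 5 tested Kcnq genes, most of which encode subunits of M-current channels, 1 fell, and both FGR libraries lay below WT in 4. Kcnq5 was at 24.1 CPM in WT against 16.9 and 17.4 CPM in FGR replicates 1 and 2. Both FGR libraries were well below WT, and the gap between them was small. The log2 fold change was -0.49 ± 0.12 (SE; adjusted p = 0.0288). Kcnq3, another M-current subunit gene, was at 118.4 CPM in WT against 108.6 and 102.1 CPM in FGR, lower in both libraries but not called (log2 fold change -0.17 ± 0.07, adjusted p = 0.209). Kcnq1, chiefly a cardiac and epithelial channel, was at 1.67 CPM in WT against 1.34 and 1.44 CPM in FGR, and its counts cannot be told apart from those of the overlapping Kcnq1ot1 where strand was not used. The difference between the changes of Kcnq5 and Kcnq3 was not tested.

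Inward rectifiers pass potassium more readily into the cell than out of it and hold the membrane near rest. Of the 13 tested Kcnj genes 2 fell, beside 2.59% of all tested genes called lower. Members were grouped by subfamily letter, and the Kir2 and Kir3 branches are a further split of Kcnj made outside that grouping. Both genes that fell belong to the Kir2 branch of 4 genes, whose channels are constitutively open. Kcnj12 was at 8.29 CPM in WT against 4.86 and 5.10 CPM in FGR. The log2 fold change was -0.74 ± 0.15 (SE; adjusted p = 0.0143). Kcnj2 was at 20.5 CPM in WT against 15.3 and 14.4 CPM in FGR. The log2 fold change was -0.47 ± 0.12 (adjusted p = 0.0476). In both genes the FGR libraries were below WT by several times the gap between them. Kcnj4, mostly a forebrain gene, had 70 counts in WT against 45 and 27 counts in FGR. Its log2 fold change was -0.91 ± 0.35, the most negative of all tested members, but it was not called (adjusted p = 0.166). Kcnj14, the remaining Kir2 gene, was at 0.947 CPM in WT against 1.07 and 1.247 CPM in FGR (log2 fold change 0.28, 95% interval -0.42 to 0.98). The summed RPKM of the branch was 2.05% of all potassium channel RPKM in WT and 1.49% and 1.498% in FGR. This sum includes Kcnj2 and Kcnj12 and is not a separate result. Neither DESeq2 (adjusted p = 0.223, 0.212 and 0.122) nor a stricter filter (0.0994, 0.0557 and 0.0790) called Kcnj2, Kcnj12 and Kcnq5. The part of the lower hypothalamic and ventral forebrain markers, given above, in the Kir2 values was not tested.

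The Kir3 branch holds the channels that G-protein-coupled receptors open, the GIRK channels. Kcnj3, an obligate partner in most neuronal GIRK channels, was at 35.7 CPM in WT against 42.7 and 44.3 CPM in FGR. Both FGR libraries were above WT. The log2 fold change of 0.28 ± 0.08 did not pass (adjusted p = 0.0607), but it did in a robust fit (0.0465) and with a GC and length offset (0.0384). The other Kir3 genes, named after their values were seen, were below WT in both FGR libraries and not called. Kcnj6, the GIRK gene of dopamine neurons, was at 14.6 CPM in WT against 11.1 and 13.0 CPM in FGR (log2 fold change -0.28, 95% interval -0.58 to 0.02). Of 10 dopamine neuron markers 4 fell (163.0 CPM summed in WT against 127.1 and 123.8 CPM in FGR), and their part in the Kcnj6 values was not tested. Kcnj9 was at 21.3 CPM in WT against 19.7 and 20.7 CPM in FGR, and Kcnj5 at 5.39, 4.17 and 4.90 CPM. Whether Kcnj3 differed in its change from the other Kir3 genes was not tested.

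**Figure D4:**
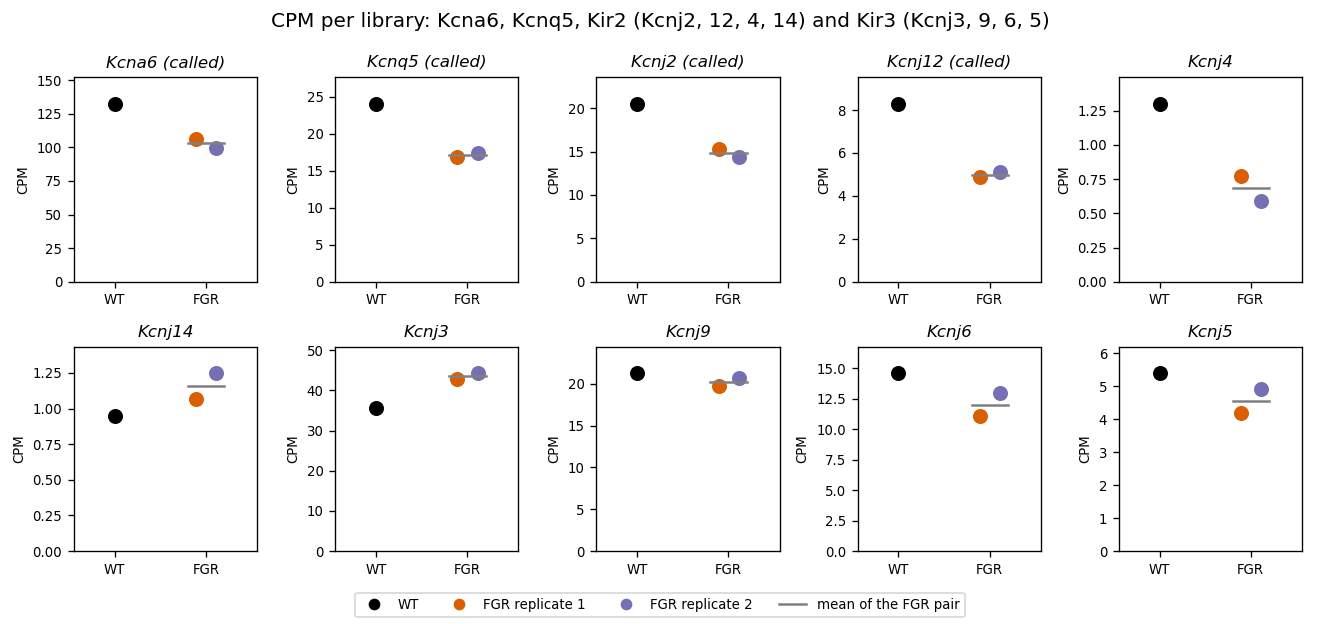
CPM (y axis, from 0) in each library for Kcna6, Kcnq5, the Kir2 genes and the Kir3 genes; black points are WT, coloured points FGR replicates 1 and 2, and grey lines the mean of the FGR pair. Both FGR points lie below WT in Kcna6, Kcnq5, Kcnj2, Kcnj12, Kcnj4, Kcnj9, Kcnj6 and Kcnj5, and above WT in Kcnj3 and Kcnj14.

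The remaining inward rectifiers, several of them genes of non-neuronal cells, did not pass the test. Kcnj10 and Kcnj16, which together form the potassium-buffering channel of astrocytes, were at 14.9 and 9.34 CPM in WT, at 12.6 and 7.9996 CPM in FGR replicate 1 and at 14.05 and 6.69 CPM in FGR replicate 2. Of 8 astrocyte markers 3 fell (1077 CPM summed in WT against 828.6 and 941.2 CPM in FGR). Kcnj8, the ATP-sensitive pore of pericytes and smooth muscle, was at 6.13 CPM in WT against 4.59 and 5.84 CPM in FGR (adjusted p = 0.534). Abcc9, its regulatory partner and a pericyte marker, fell from 12.3 CPM to 8.17 and 7.46 CPM (log2 fold change -0.66 ± 0.14, adjusted p = 0.0178). With Abcc9 itself counted, 3 of 8 pericyte and smooth muscle markers were called lower, and 7 were below WT in both FGR libraries. Kcnj11 and Abcc8, which form the neuronal ATP-sensitive channel, were at 12.7 and 13.9 CPM in WT, 14.7 and 12.7 CPM in FGR replicate 1 and 13.5 and 11.6 CPM in FGR replicate 2. Kcnj13, a channel of choroid plexus epithelium, was at 3.62 CPM in WT against 2.19 and 3.35 CPM in FGR, so that FGR replicate 2 was nearer to WT than to the other FGR library. Of 6 ependyma and choroid plexus markers 2 fell (37.0 CPM summed in WT against 24.05 and 26.97 CPM in FGR). The part of these marker differences in the values of Kcnj8, Kcnj10, Kcnj13 and Kcnj16 was not tested.

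Of the A-type channel genes and their Kcnip partners 0 passed edgeR's test at the adjusted threshold, though Kcnip2 came near it. Kcnd2 was at 163.3 CPM in WT against 165.6 and 160.8 CPM in FGR, with a 95% interval of the log2 fold change of -0.16 to 0.16. Kcnd3 was at 148.1, 155.9 and 142.1 CPM in the same order, and WT lay between the FGR libraries. Kcnd1, the least abundant Kcnd gene, was at 3.60 CPM in WT against 4.60 and 4.18 CPM in FGR (log2 fold change 0.29, 95% interval -0.10 to 0.68). Among the Kcnip genes, calcium-binding subunits that raise the surface level of Kcnd channels, Kcnip2 and Kcnip3 were below WT in both FGR libraries. Kcnip2 was at 11.8 CPM in WT against 8.03 and 8.75 CPM in FGR (log2 fold change -0.49 ± 0.14, adjusted p = 0.0664), and Kcnip3 at 27.2, 22.3 and 21.5 CPM (adjusted p = 0.122). Kcnip2 was called lower in 4 of the 10 alternatives that allow a test: library totals, no filter on low counts, limma-voom and the robust fit. Kcnip1 was at 77.2 CPM in WT against 76.4 and 73.0 CPM in FGR, and Kcnip4 at 21.01, 23.6 and 21.6 CPM. The other Kcnd partners, Dpp6 and Dpp10, were at 205.4 and 156.1 CPM in WT and at 176.6 to 181.4 and 141.4 to 154.2 CPM in FGR, and neither was called.

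Delayed rectifiers of the Kcnb and Kcnc subfamilies, which repolarize the membrane after each spike, did not pass the test. Kcnb2 was at 84.3 CPM in WT against 87.0 and 78.6 CPM in FGR. Of the Kcnc genes, which permit fast spiking, Kcnc4 was at 34.8 CPM in WT against 29.8 and 28.7 CPM in FGR (log2 fold change -0.25 ± 0.09, adjusted p = 0.156). Kcnc1 was also below WT in both FGR libraries (log2 fold change -0.15), and Kcnc2 was not (0.03). The silent subunits of Kcnf, Kcng, Kcns and Kcnv form no channel alone and modify Kcnb channels. All 10 were tested, 0 were called, 7 were below WT in both FGR libraries and the median log2 fold change was -0.28 (range -0.60 to -0.06). Kcnf1 was at 27.2 CPM in WT against 22.2 and 19.6 CPM in FGR (log2 fold change -0.38 ± 0.12, adjusted p = 0.0842). With scaling by library totals it was called (adjusted p = 0.0458), as it was when low counts were kept (0.0222). Kcng3 was at 3.44 CPM in WT against 2.53 and 2.12 CPM in FGR, Kcng2 at 1.95, 1.31 and 1.31 CPM, and Kcns2, the most abundant silent subunit, at 36.7, 33.1 and 29.8 CPM. Kcnv1 was at 12.6 CPM in WT against 12.8 and 11.4 CPM in FGR, with WT between the FGR libraries.

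Of the 8 Kcnh genes, which encode the EAG, ERG and ELK channels, 0 were called. Kcnh5, an EAG channel, was at 9.38 CPM in WT against 13.8 and 11.7 CPM in FGR. Its log2 fold change of 0.44 ± 0.15 was the most positive of the members averaging 1 CPM or more (adjusted p = 0.122). Kcnh3, an ELK channel of the forebrain, was at 1.86 CPM in WT against 1.21 and 1.16 CPM in FGR (-0.65 ± 0.27, adjusted p = 0.218). Kcnh2, the ERG channel known from cardiac repolarization and the most abundant Kcnh gene per length, was at 29.8 CPM in WT against 28.2 and 27.5 CPM in FGR. Kcnh7, another ERG channel, had WT between the FGR libraries, at 48.3 CPM against 56.4 and 47.5 CPM.

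Calcium- and sodium-activated channels had the highest median of the pore classes (0.06, n = 8 tested, 0 called). Kcnt1, a sodium-activated channel, was at 83.3 CPM in WT against 92.3 and 95.6 CPM in FGR. Both FGR libraries were above WT (log2 fold change 0.17 ± 0.07, adjusted p = 0.170), and with a GC and length offset the gene was called higher (adjusted p = 0.0395). Kcnn2 and Kcnn3, small-conductance channels of the afterhyperpolarization, were at 17.4 and 37.2 CPM in WT, 21.03 and 40.05 CPM in FGR replicate 1 and 19.7 and 43.0 CPM in FGR replicate 2. Kcnn1, of the same subfamily and the most abundant per length, was below WT in both FGR libraries, at 20.9 CPM in WT against 17.98 and 16.01 CPM in FGR (log2 fold change -0.30 ± 0.12, adjusted p = 0.218). Kcnma1, the large-conductance BK channel, was at 51.2 CPM in WT against 50.5 and 45.3 CPM in FGR. Of its beta subunits, Kcnmb2, which makes BK channels inactivate, was at 10.1 CPM in WT against 12.7 and 13.0 CPM in FGR (log2 fold change 0.34 ± 0.14, adjusted p = 0.192). Kcnmb4, the main neuronal beta subunit, was at 17.3, 16.3 and 18.1 CPM. Kcnu1, known as a sperm channel, was at 3.16 CPM in WT against 2.88 and 3.33 CPM in FGR.

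K2P channels carry the leak current of resting cells, and 0 of 11 tested Kcnk genes were called. Kcnk9, the most abundant, was at 18.2 CPM in WT against 16.3 and 16.9 CPM in FGR (log2 fold change -0.13, 95% interval -0.40 to 0.13). Kcnk10 and Kcnk2, both mechanosensitive channels, were at 31.2 and 24.7 CPM in WT, 28.9 and 25.6 CPM in FGR replicate 1 and 29.3 and 25.8 CPM in FGR replicate 2. Kcnk1 was at 13.8 CPM in WT and FGR replicate 1 and at 16.8 CPM in FGR replicate 2. Kcnk13, a leak channel of microglia, was at 2.06 CPM in WT against 1.67 and 1.99 CPM in FGR, while 3 of 7 microglial markers fell (112.3 CPM summed in WT against 82.4 and 87.0 CPM in FGR). The part of the microglial markers in the Kcnk13 values was not tested.

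**Figure D5:**
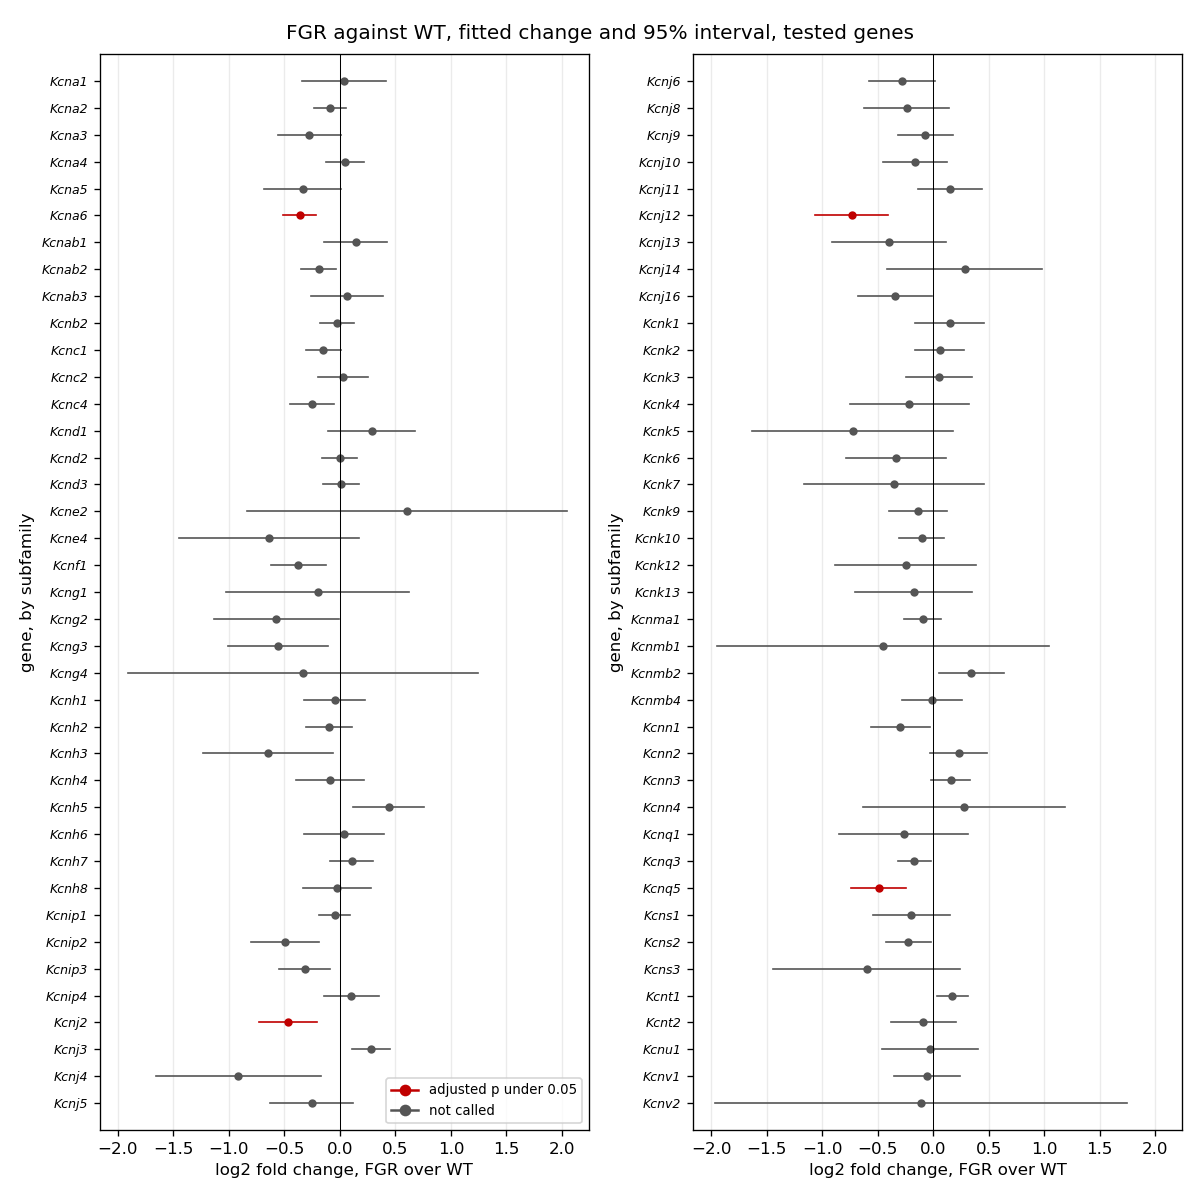
Fitted log2 fold change of FGR over WT (x axis) with its 95% interval for 78 of the 82 tested potassium channel genes, ordered by subfamily (y axis); red marks an adjusted p under 0.05. Only Kcna6, Kcnj2, Kcnj12 and Kcnq5 are red, and intervals are wide for genes with few counts.

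Over the 72 members averaging 1 CPM or more, the median absolute log2 difference between the FGR libraries was 0.13, against 0.10 over all genes at that level. With its sign kept, the median log2 ratio of FGR replicate 2 over replicate 1 was -0.05 in these members. Their median log2 fold change of FGR over WT was -0.10, larger in size than that signed median within the FGR pair. The median absolute difference drops the sign and is not a like measure. With 1 WT library no such spread within WT is known. The FGR libraries differed most in Kcne4, an inhibitory auxiliary subunit, at 0.690 CPM in FGR replicate 1 and 1.58 CPM in FGR replicate 2, with 1.73 CPM in WT. Kcnk12 differed most in the other direction, at 2.05 and 1.23 CPM. Meningeal fibroblast markers differed between the FGR libraries in the same direction as Kcne4, with summed levels of 249.1 and 383.7 CPM and 602.6 CPM in WT (6 of 7 markers fell), and their part in the Kcne4 values was not tested. The precision followed the counts: the 95% interval of the log2 fold change had a median half-width of 0.26 in the 58 tested members averaging 5 CPM or more, and 0.83 in the 14 under 1.5 CPM. For the rarer members a change of the size seen in Kcna6 was therefore not detectable at this depth.

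Partners of the channels were taken from 6 lists, chosen like the members with results of these data known. Of 56 genes 55 were tested, and 3 of the 55 fell and 0 rose by the same test, beside 4.25% of all tested genes called, with a median log2 fold change of -0.07 beside 0.01 over all tested genes. Gabbr2, a subunit of the GABA-B receptor that opens GIRK channels, was at 172.8 CPM in WT against 132.1 and 128.5 CPM in FGR (log2 fold change -0.41 ± 0.07, adjusted p = 0.00470). Its partner Gabbr1, the most abundant gene of the GIRK partner list, was at 568.1 CPM in WT against 473.3 and 470.0 CPM in FGR, and was not called (adjusted p = 0.139). Hcn3, a hyperpolarization-activated channel that passes potassium and sodium, fell from 49.2 CPM to 39.5 and 37.1 CPM (adjusted p = 0.0175). All 4 Hcn genes were below WT in both FGR libraries, with a median log2 fold change of -0.27. The third gene that fell was Abcc9, described above with Kcnj8. Of 18 anchoring and clustering partners of voltage-gated channels 0 passed, with Vapa, the most abundant per length, at 102.4 CPM in WT against 102.2 and 91.2 CPM in FGR. The calmodulin genes (0 of 3 called) and the potassium pumps and cotransporters (0 of 10 called) were led by Calm2, at 611.7 CPM in WT against 627.9 and 619.9 CPM in FGR, and Atp1b1, at 299.9, 270.3 and 251.1 CPM. Lingo1, the most abundant of the BK and ATP-sensitive channel partners, was at 94.8 CPM in WT against 96.1 and 92.0 CPM in FGR. Alternatives called 1 to 10 of the partner genes, with Gabbr2 called in each that allows a test. Hcn3 and Abcc9 were not called by DESeq2, under the stricter filter or at a threshold of 0.01. Gabbr1 was called by DESeq2, by limma-voom and without a filter on low counts.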

How the data were processed

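Per the submitters' processing notes reads were aligned with HISAT2. The sources used here give no version, genome build, counting tool or use of strand, so members overlapped by antisense transcripts (Kcnab3, Kcnd3, Kcnmb4, and Kcnq1 with the abundant Kcnq1ot1) are uncertain. The authors deposited raw read counts per gene with a length and an RPKM value. Deposited RPKM values equalled count, length and total to within 4.98e-04 percent and were recomputed with TMM scaling. GENCODE M21 matched 49326 identifiers and gave GC content.

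FGR was compared with WT by the quasi-likelihood test (two-sided) of edgeR 4.0.16 (R 4.3.3), after filterByExpr at a minimum count of 10 and TMM scaling, with Benjamini-Hochberg adjustment over 25561 genes and a threshold of 0.05. The 1 residual degree of freedom is that of the FGR pair, whose spread stands in for that of the single WT library. No label names separate animals, and p-values rest on sample-to-sample spread alone. The fit moderates that spread across genes, so the spread of other genes enters the p-value of each gene. Xist and Ddx3y differ within the FGR pair, so these are not repeat preparations of 1 sample. SE is the absolute log2 fold change over the square root of F. The procedure was tested on simulated data.

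Alternatives were DESeq2 1.42.0, limma-voom 3.58.1, a robust fit, scaling by size factors or totals, filters (none, or a mean CPM of at least 1), a threshold of 0.01, removal of abundant RNA genes, a GC and length offset, and removal of each FGR library. Members and lists were chosen with earlier results of these data known. Named genes were called members, the most abundant member of each subfamily, the 5 largest rises and falls at a mean CPM of at least 1, and called or most abundant partners. Members named beyond these to complete a subfamily or cell type were chosen after their values were seen. A few members are counted but not reported here by name.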

Additional observations from a re-analysis of the deposited data

How the results depend on the processing

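No paired analysis was possible because the WT group has 1 library, so the groups share only replicate number 1. Counts of called potassium channel genes, 4 in all and 4 lower, came to 1 in DESeq2, under the stricter filter and at a threshold of 0.01. Each time the gene was Kcna6. In all, 6 were called with library totals, without a filter, in a robust fit and with a GC and length offset, and 5 in limma-voom. Of these, 6 were lower with library totals and without a filter, 5 in limma-voom and in the robust fit, and 4 with the offset. The count called higher, 0, came to 1 in a robust fit and to 2 with a GC and length offset. Among all genes, 1087 calls became 2057 without a filter, 301 under the stricter filter, 357 in DESeq2 and 369 at a threshold of 0.01. The 3 called partner genes became 5 with library totals or without abundant RNA genes, 10 without a filter, 6 in limma-voom, and 1 under the stricter filter and at a threshold of 0.01. The members' median log2 fold change of -0.12 became -0.16 with library totals, -0.13 without a filter or abundant RNA genes, -0.10 under the stricter filter, -0.14 in limma-voom and -0.092 with a GC and length offset. Without either FGR replicate it was -0.11 to -0.10, with 1 library against 1 and no test. The median over all tested genes was 0.0051 in the main fit, -0.034 with library totals and 0.020 with the GC and length offset. It was 0.0023 without a filter, -0.0037 without abundant RNA genes, 0.0045 under the stricter filter and -0.0016 in limma-voom. The cause of the shifts in either median was not tested. Of the single members named by the rule, 0 reversed, 9 results lost and 5 gained a call. DESeq2 gave no adjusted p for 16 members. No WT library could be left out, and at this depth members under 1.5 CPM had wide intervals.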

Other observations

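There are 7 genes whose symbols begin with Kcn but that fall outside the naming rule. Kcnq1ot1, the long noncoding RNA that overlaps Kcnq1 and silences imprinted neighbours, was at 213.6 CPM in WT against 247.1 and 257.5 CPM in FGR replicates 1 and 2 (edgeR adjusted p = 0.125), while Kcnq1 itself was at 1.67 CPM in WT against 1.34 and 1.44 CPM in FGR. Kcnab3os, an antisense transcript of the Kcnab3 locus, had 31 counts in WT against 61 and 67 counts in FGR (adjusted p = 0.118). Kcnrg, a regulator of voltage-gated channel assembly, had 65 counts in WT against 125 and 76 counts in FGR (adjusted p = 0.221). Kcne1l, an auxiliary subunit gene on the X chromosome, was at 13.3 CPM in WT against 9.55 and 11.2 CPM in FGR (adjusted p = 0.191). The antisense transcripts Kcnd3os, Kcnmb4os1 and Kcnmb4os2 lay within 1.07-fold of WT.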
